A study of Mus musculus with 4 samples.

Results

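The genes described here are 10 components of innate sensing in mouse myeloid-derived suppressor cells (MDSCs): the surface receptors Tlr1, Tlr2, Tlr4 and Tlr6 with the co-receptor Cd14, the endosomal receptors Tlr7, Tlr8, Tlr9 and Tlr13, and the adaptor Myd88. They were chosen by symbol, and all 10 were found among the 55416 gene IDs of the count table. MDSCs are immature cells of the neutrophil and monocyte lineages that expand with a tumor and dampen T cell responses. EL4 cells, a T cell lymphoma line, were given to wild-type mice (WT, 2 libraries) and to mice without Sphk2, the gene of sphingosine kinase 2 (Sphk2 KO, 2 libraries). MDSCs were sorted from their ascites 14 days later for sequencing of poly(A) RNA, so every group carried the tumor. The allele of the knockout, the cells in which it acts, the age of the mice, the markers of the sort and any pooling of animals are not stated in the labels. The comparison between genotypes asks how loss of the kinase alters the transcriptome of these cells.

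Toll-like receptors recognize microbial molecules through leucine-rich repeats and signal through a cytoplasmic TIR domain. At the surface TLR2 pairs with TLR1 or TLR6 to bind bacterial lipopeptides, and TLR4 with MD-2 binds lipopolysaccharide that CD14 hands over. In endosomes, TLR7, TLR8 and the mouse receptor TLR13 sense RNA and TLR9 senses unmethylated CpG DNA. All of these use MyD88, which assembles IRAK kinases and leads to NF-kB, and in neutrophils and monocytes the pathway drives cytokine production and prolongs survival.

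The libraries held 14087613 to 24685576 counts, and replicates may be technical, since the labels do not say that they came from separate mice. The p-values then measure only the spread between these samples. Sphk2 stood at 54.9 and 53.7 CPM (counts scaled to library size with edgeR's TMM factors) in WT replicates 1 and 2 and at 4.07 and 4.45 CPM in Sphk2 KO replicates 1 and 2 (edgeR adjusted p = 0.000127). Neutrophil markers dominated each library, with S100a9, an alarmin subunit, at 5243 to 11991 CPM. RNA of other cell types was also present: 6 B cell markers, Pax5 the most abundant, summed to 502 to 505 CPM in the WT libraries and 244 to 383 CPM in Sphk2 KO. No marker of the 9 cell type lists was at 0 in all libraries. That alone does not show that each cell type was present, since natural killer markers summed to only 0.979 to 1.59 CPM.

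Tlr1 and Tlr6 lie next to each other on chromosome 5, with 0 protein-coding genes between them, and are close copies. Their longest transcripts share 340 sequences of 75 bases, which is 11.5% of those of Tlr1 and 9.44% of those of Tlr6. No 75-base sequence of the other members occurred in another gene's transcripts. The shared letters fall into 4 identical coding stretches of at least 75 bases, 636 bases in all, and the longest of them is shown because a short read from it cannot be assigned to either gene. It spans 229 bases (transcript positions 1939 to 2167 of Tlr1 and 1652 to 1880 of Tlr6, GENCODE M21):
Tlr1 and Tlr6: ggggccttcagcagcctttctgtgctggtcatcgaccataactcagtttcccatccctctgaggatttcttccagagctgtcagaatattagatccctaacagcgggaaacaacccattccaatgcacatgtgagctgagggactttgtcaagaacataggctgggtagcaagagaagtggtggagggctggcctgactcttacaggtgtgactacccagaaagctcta
The values of these 2 genes are therefore uncertain. Tlr7 and Tlr8 are neighbors on the X chromosome with 0 protein-coding genes between them, but share no such sequence. Myd88 overlaps Acaa1a on the opposite strand and Slc22a14 on its own strand, and the labels do not give the strand setting of the counting, so part of its reads could belong to them.

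The promoters of 7 members were read from RefSeq (GRCm38.p6), and 2 are printed: Tlr9, the member with the largest difference between genotypes, and Tlr13, the most abundant of the receptors. Each line gives the 250 bases before the transcription start on the gene's strand, with motif matches in capitals:
Tlr9, chr9:106222348-106222597, plus strand: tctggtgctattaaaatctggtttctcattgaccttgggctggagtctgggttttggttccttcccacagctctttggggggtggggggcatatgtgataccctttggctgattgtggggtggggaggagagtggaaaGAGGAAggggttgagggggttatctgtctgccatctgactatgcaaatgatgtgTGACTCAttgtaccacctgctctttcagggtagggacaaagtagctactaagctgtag
Tlr13, chrX:106143025-106143274, plus strand: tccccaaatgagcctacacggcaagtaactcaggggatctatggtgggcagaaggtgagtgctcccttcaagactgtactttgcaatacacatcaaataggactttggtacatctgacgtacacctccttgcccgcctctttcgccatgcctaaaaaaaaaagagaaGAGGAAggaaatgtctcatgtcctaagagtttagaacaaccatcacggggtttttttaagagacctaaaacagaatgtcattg
Both hold the core of the PU-box (GAGGAA, searched on both strands), the site of the myeloid and B cell factor PU.1. That core was found in 4 of the 7 genes (Tlr1, Tlr8, Tlr9 and Tlr13). By window, it was in 4 of the 9 windows of these 7 genes and in 23.3% of all 32851 promoter windows of this length. Cd14 was left out of the search, and Tlr4 and Tlr7 had no promoter in the set used. Tlr9 alone of the 7 held an AP-1 motif (TGANTCA, 6.75% of all windows). A C/EBP motif (TTGCNNAA, 9.56% of all windows) was found in Tlr6 and Tlr8, and a core of the interferon-stimulated response element (GAAANNGAA, 7.13%) in Tlr6, Tlr8 and Myd88. The NF-kB core GGANNTTCC (3.59%) was in none of the 7, which says only that these letters are not in these windows. All motifs were searched on both strands, and the matches in the printed promoters did not overlap each other.

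Levels were compared between genes as CPM per kilobase of exon. Cd14 was highest, at 110.2 to 139.8, followed by Tlr13 at 100.2 to 124 and Myd88 at 76.6 to 128. Cd14 exceeded Tlr13 in 4 of 4 libraries although their ranges overlapped, and Tlr13 exceeded Myd88 in 2 of 4, so the order of those 2 is not settled. Tlr2 came next, at 43.6 to 79.5, and stood clear of the genes below it. Tlr6 (24.2 to 39), Tlr1 (24.6 to 35.6) and Tlr4 (17.7 to 36.1) overlapped: Tlr6 was above Tlr1 in 2 of 4 libraries and Tlr1 above Tlr4 in 3 of 4. Tlr8 followed at 13.2 to 18.8, below Tlr4 in 4 of 4 libraries. Tlr7 (8.09 to 12.3) lay below the whole range of Tlr8, and Tlr9 (4.8 to 10.5) was lowest, below Tlr7 in 3 of 4 libraries.

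**Figure D1:**
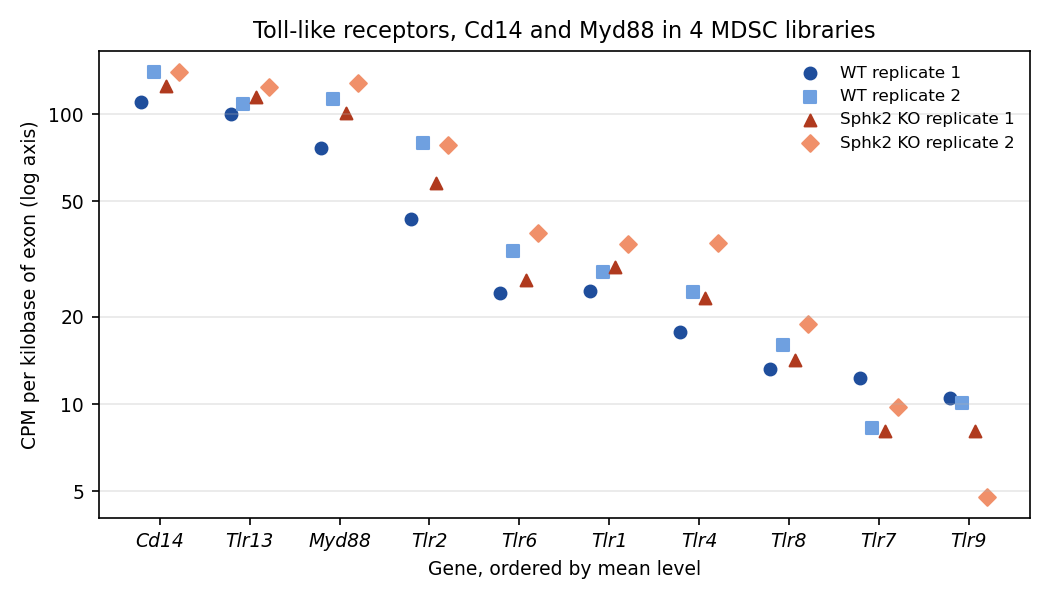
Level of each gene in each library, as CPM per kilobase of exon on a log axis, with genes ordered by their mean and 1 symbol per library. Cd14, Tlr13 and Myd88 form the top of the set, Tlr7 and Tlr9 the bottom, and WT replicate 1 is the lowest symbol for the 8 genes from Cd14 to Tlr8.

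No member passed the unpaired test between genotypes with all 4 libraries. Of 16566 genes tested, 0.109% were called, 0.0423% as higher and 0.0664% as lower in Sphk2 KO (edgeR quasi-likelihood test, Benjamini-Hochberg adjusted p under 0.05 over all genes), and 0 of the 10 members were among them, with adjusted p from 0.425 to 0.874. At an unadjusted p under 0.05, 1 member, Tlr9, had a lower value in Sphk2 KO, against 7.47% of all genes with lower values, and 0 members had higher values, against 3.06% of all genes. DESeq2, also unpaired, called 0 of the 10 as well. The log2 fold change was above 0 in 8 members and below 0 in Tlr7 and Tlr9, but with library size alone as the scaling Tlr2 and Cd14 were also below 0. The median was 0.19, against -0.0007 over all tested genes. That median was 0.02 when WT replicate 1 was left out and 0.38 when WT replicate 2 was. Leaving out Sphk2 KO replicate 1 gave 0.35, and leaving out Sphk2 KO replicate 2 gave -0.01.

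Among the surface receptors, Tlr4, the lipopolysaccharide receptor, differed most. It stood at 98.3 and 135 CPM in WT replicates 1 and 2, and at 129 and 200.5 CPM in Sphk2 KO replicates 1 and 2. The groups overlapped, and Sphk2 KO replicate 2 alone was above both WT libraries. Its log2 fold change was 0.50 (SE 0.242, 95% interval -0.06 to 1.05, edgeR adjusted p = 0.504). The value was 0.15 without Sphk2 KO replicate 2 and 0.27 without WT replicate 1. It was 0.76 without WT replicate 2, where it passed the test (edgeR adjusted p = 0.0367) together with 5.93% of all genes.

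Tlr2, the shared partner of TLR1 and TLR6, varied more between replicates than between genotypes. It had 131 and 239.6 CPM in the WT libraries and 174 and 236 CPM in Sphk2 KO, in the order of the replicates. Both Sphk2 KO values lay inside the WT range. Its log2 fold change was 0.15 (SE 0.283, 95% interval -0.50 to 0.79, edgeR adjusted p = 0.863), beside a gap of 0.87 on the log2 CPM scale between the WT replicates. The sign depended on the setting: the value was -0.0018 with library size alone as the scaling, -0.24 and 0.66 without WT replicates 1 and 2, and -0.08 when Sphk2 KO replicate 2 was left out.

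Tlr1, one of its partners, had smaller replicate gaps in both genotypes. It stood at 82.2 and 95.3 CPM in the WT libraries and 99.1 and 119 CPM in Sphk2 KO. Both Sphk2 KO libraries were above both WT libraries, as in 20.4% of all tested genes. Its log2 fold change was 0.30 (SE 0.162, 95% interval -0.07 to 0.67, edgeR adjusted p = 0.542). Tlr6 overlapped, with 90.1 and 126 CPM in the WT libraries and 100.2 and 145 CPM in Sphk2 KO, a log2 fold change of 0.19 (SE 0.226, edgeR adjusted p = 0.767), and its value turned to -0.04 when WT replicate 1 was left out and to -0.10 when Sphk2 KO replicate 2 was. The ratio of Tlr1 to Tlr6 per kilobase was 1.02 and 0.846 in WT against 1.10 and 0.914 in Sphk2 KO, so neither gene was the more abundant one throughout. Cd14, which passes lipopolysaccharide to TLR4, had 191 and 242 CPM in the WT libraries and 217 and 242 CPM in Sphk2 KO. Its log2 fold change was 0.09 (SE 0.182, 95% interval -0.33 to 0.50, edgeR adjusted p = 0.874), the smallest in size of the 10, and it was -0.08 with library size alone as the scaling and -0.09 when WT replicate 1 was left out.

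In the endosomal set, Tlr13, which binds a sequence of bacterial ribosomal RNA, was the most even member across the libraries. It stood at 431 and 466 CPM in the WT libraries and 492 and 532 CPM in Sphk2 KO. Both Sphk2 KO libraries exceeded both WT libraries, as in 20.4% of all tested genes. The log2 fold change of 0.19 (SE 0.191, 95% interval -0.25 to 0.63, edgeR adjusted p = 0.726) was larger than the gap of 0.11 between the replicates of either genotype. Only Tlr1 shared this: in the other 8 members the difference between genotypes was smaller than the larger of the replicate gaps. The share of all tested genes for which this holds was not computed.

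Tlr8 and Tlr7, neighbors on the X chromosome with related RNA ligands, did not follow the same libraries. Tlr8 had 47.5 and 57.2 CPM in the WT libraries and 51.1 and 67.5 CPM in Sphk2 KO, a log2 fold change of 0.18 (SE 0.183, edgeR adjusted p = 0.726). Tlr7 had 50.1 and 33.7 CPM in the WT libraries and 33.0 and 40.0 CPM in Sphk2 KO, a log2 fold change of -0.20 (SE 0.216, 95% interval -0.69 to 0.30, edgeR adjusted p = 0.746). The Tlr8 value was -0.03 when Sphk2 KO replicate 2 was left out. WT replicate 1 was the lowest library for Tlr8 and the highest for Tlr7. Per kilobase, the ratio of Tlr7 to Tlr8 was 0.928 in WT replicate 1 and 0.517 to 0.568 in the other libraries. Without WT replicate 1, the log2 fold change of Tlr7 was 0.11.

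Tlr9, the receptor for CpG DNA, was the lowest member in level and the one with the largest difference. It stood at 36.5 and 34.97 CPM in the WT libraries and at 28.0 and 16.7 CPM in Sphk2 KO. The Sphk2 KO values lay wholly below the WT values, as in 22.7% of all tested genes, and the WT libraries nearly coincided. Its log2 fold change was -0.68 (SE 0.245, 95% interval -1.25 to -0.12, edgeR unadjusted p = 0.0228), and it did not pass over all genes (edgeR adjusted p = 0.425). Sphk2 KO replicate 2 set much of this size: the value was -0.34 without it, and -1.11 without Sphk2 KO replicate 1, where Tlr9 passed the test (edgeR adjusted p = 0.0121) together with 3.57% of all genes. The ratio of Tlr13 to Tlr9 per kilobase was 9.55 and 10.8 in WT and 14.2 and 25.8 in Sphk2 KO.

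Myd88, the adaptor of all these receptors, had 197 and 291 CPM in the WT libraries and 259.8 and 329.8 CPM in Sphk2 KO. Its groups overlapped, since WT replicate 2 lay above Sphk2 KO replicate 1. The log2 fold change was 0.27 (SE 0.230, 95% interval -0.26 to 0.80, edgeR adjusted p = 0.683), 0.00 without WT replicate 1 and 0.60 without WT replicate 2.

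**Figure D2:**
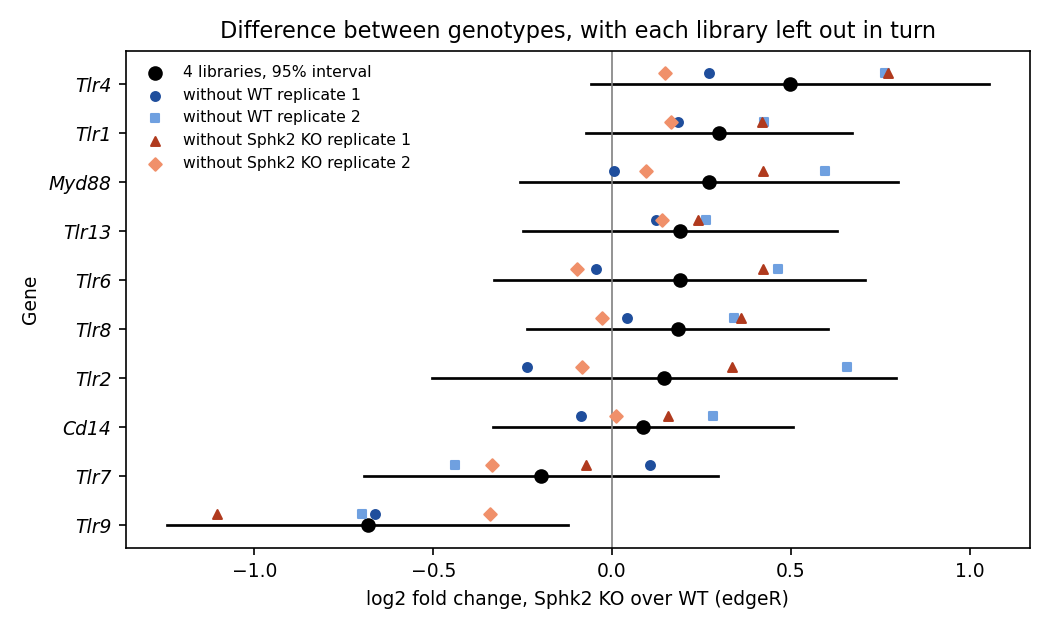
Log2 fold change of Sphk2 KO over WT for each gene (black points, edgeR, 4 libraries) with its 95% interval (lines), and the value with each library left out (colored symbols). Tlr9 is the only gene whose 95% interval lies below 0, and leaving out Sphk2 KO replicate 2 moves it from -0.68 to -0.34.

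Many of the members had their lowest and highest values in the same libraries. WT replicate 1 had the lowest CPM of 8 members, all but Tlr7 and Tlr9, and of 32.8% of all tested genes. Sphk2 KO replicate 2 had the highest CPM of 7 members, the exceptions being Tlr2, Tlr7 and Tlr9, and of 31.3% of all tested genes. For Tlr9 the order was turned around, with WT replicate 1 highest and Sphk2 KO replicate 2 lowest. The summed CPM of 10 neutrophil markers ran in the same library order as these 7 members at its ends. It went from 20611 in WT replicate 1 through 28472 and 32773 to 39316 in Sphk2 KO replicate 2. Not every marker followed this order: Camp and Ltf were lowest in WT replicate 2, and Camp, Ltf and Mmp9 were highest in Sphk2 KO replicate 1. All 10 neutrophil markers had positive log2 fold changes, while 50.1% of all tested genes had negative ones. At an unadjusted p under 0.05, 4 of the 10 had higher values, against 3.06% of all tested genes, and 0 passed the adjusted threshold. Erythroid markers summed to 24.5 and 71.5 CPM in WT against 98.1 and 141 CPM in Sphk2 KO, in the same order. Sphk2 KO replicate 2 was also the deepest library. The part of these markers and of depth in the member values was not tested.

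As shares of the summed level of the 8 receptors, the values do not depend on scaling between libraries. Tlr13 made up 40.7% and 35.1% in WT against 40.5% and 35.7% in Sphk2 KO (mean 37.9% ± 3.96 and 38.1% ± 3.38, SD, n = 2 each). Tlr2 made up 17.7% and 25.8% in WT against 20.5% and 22.6% in Sphk2 KO. The share of Tlr9 was 4.26% and 3.26% in WT against 2.86% and 1.39% in Sphk2 KO, and that of Tlr4 7.18% and 7.90% against 8.21% and 10.4%. The share of Tlr1 was 9.98% and 9.23% against 10.5% and 10.3%. The endosomal receptors together held 50.8% ± 6.44 in WT and 48.3% ± 4.16 in Sphk2 KO (SD, n = 2 each), a difference of -2.42 percentage points within the replicate spread (exact permutation test, two-sided, p = 0.667; 2 against 2 cannot reach 0.05, since 2 of the 6 assignments always give the smallest p). Its direction depended on single libraries: it was 2.14 and -6.97 points when WT replicates 1 and 2 were left out, and -5.36 and 0.53 points when Sphk2 KO replicates 1 and 2 were.

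**Figure D3:**
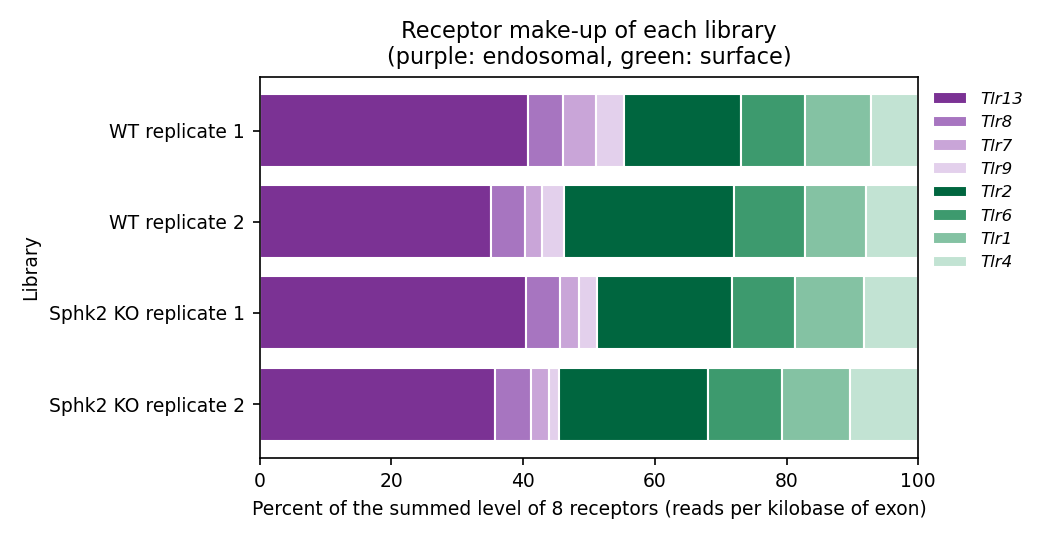
Share of each of 8 receptors in their summed level (reads per kilobase of exon) in each library, as stacked bars from 0 to 100%, endosomal receptors in purple and surface receptors in green. Tlr13 takes 35.1% to 40.7% of every bar, and the Tlr9 segment narrows from 4.26% in WT replicate 1 to 1.39% in Sphk2 KO replicate 2.

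The level of Tlr9 moved with markers of B cells, a cell type in which TLR9 is well known. All 6 B cell markers had each Sphk2 KO library below each WT library, as in 22.7% of all tested genes. All 6 had an unadjusted p under 0.05, against 7.47% of all tested genes with lower values, and 0 passed the adjusted threshold. The 6 mark 1 cell type and are not independent of each other. Their sum was 505 and 502 CPM in the WT libraries and 383 and 244 CPM in Sphk2 KO, and Pax5, the B lineage factor, alone stood at 123 and 120.2 CPM against 87.1 and 51.6 CPM. Tlr9 equaled 7.22% and 6.97% of that sum in WT against 7.32% and 6.83% in Sphk2 KO, a ratio of 1.07 between the highest and the lowest library. This ratio was picked, after the values were seen, as the most even of 40 between the 10 members and 4 marker lists. Of the other tested genes, 0.0362% (6 of 16559) were at least as even against the same sum. Since the ratio was picked for its evenness, this share does not measure how unusual it is. It was not computed for the other ratios. Bulk RNA cannot tell apart fewer cells of a type and less RNA per cell, in B cells or in the myeloid cells themselves, and the part of B cells in the Tlr9 values was not tested.

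Markers of other cell types that carry endosomal receptors also had lower sums in Sphk2 KO. The 10 monocyte and macrophage markers summed to 1282 and 1110 CPM in the WT libraries and 1058 and 859 CPM in Sphk2 KO, and in 3 of them the Sphk2 KO values lay wholly below the WT values, as in 22.7% of all tested genes. Of the 10, 9 had a log2 fold change below 0 and 1 above, with a median of -0.68. At an unadjusted p under 0.05, 3 had lower values, against 7.47% of all tested genes, and 0 passed the adjusted threshold. The 1 above 0 was their most abundant gene, Csf1r, the receptor for macrophage colony-stimulating factor, at 0.02 (SE 0.206). The 5 plasmacytoid dendritic cell markers summed to 57.1 to 72.2 CPM in the WT libraries and 40.3 to 50.4 CPM in Sphk2 KO, nearly all of it Tcf4, which other cells also express. Siglech, a defining marker of those cells, had 16 and 7 counts in the WT libraries and 3 in each Sphk2 KO library. Tlr9 equaled 1.94% to 3.15% of the monocyte and macrophage sum, and Tlr7 equaled 3.03% to 4.66% of it. T cell and EL4 markers summed to 28.7 to 36.2 CPM in the WT libraries and 15.6 to 16.6 CPM in Sphk2 KO. Of these 7 markers, 6 had a log2 fold change below 0, and the most abundant, Cd3d, was above it at 0.11 (SE 0.347). Conventional dendritic markers summed to 24.1 to 25.8 CPM in the WT libraries and 19.6 to 21.6 CPM in Sphk2 KO. Of the 5 tested, 3 had a log2 fold change below 0 and 2 above. The most abundant, Clec9a, was level at -0.005 (SE 0.265). Eosinophil, basophil and mast cell markers summed to 71.9 to 74.5 CPM in WT and 67.5 to 71.2 CPM in Sphk2 KO. Natural killer markers summed to 1.23 to 1.59 CPM in WT and 0.979 to 0.999 CPM in Sphk2 KO. The part of any of these cells in the values of Tlr7 and Tlr9 was not tested.

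**Figure D4:**
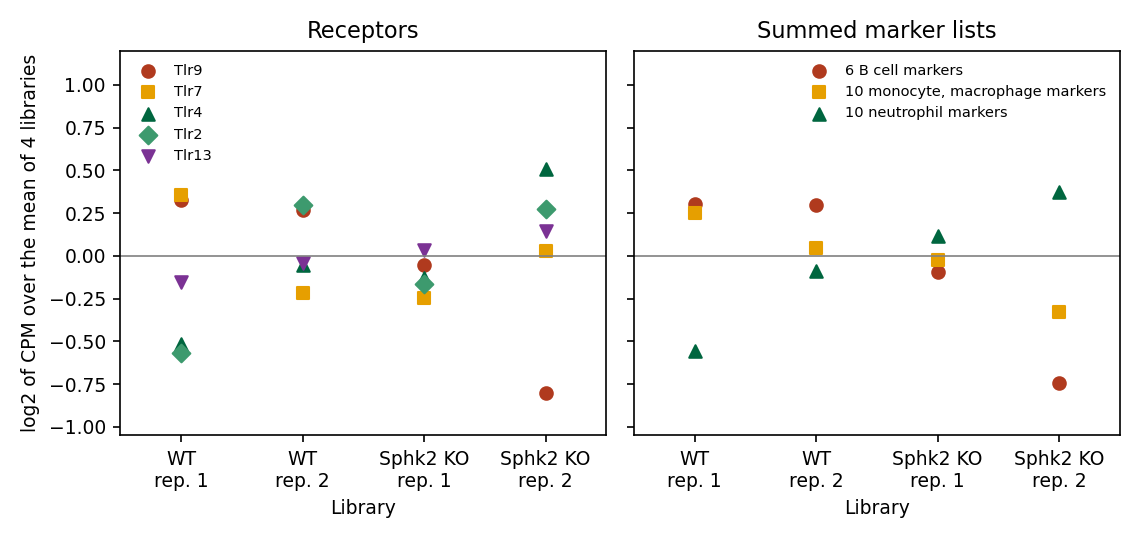
Left, 5 receptors in each library as log2 of the CPM over the mean of the 4 libraries. Right, the summed CPM of the B cell, monocyte and macrophage, and neutrophil marker lists on the same scale. Tlr9 and the B cell sum are both lowest in Sphk2 KO replicate 2, and Tlr4 and the neutrophil sum are both lowest in WT replicate 1 and highest in Sphk2 KO replicate 2.

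Likeness to other genes was measured as the root mean square difference of log2 CPM, centered on each gene's mean over the 4 libraries. For Tlr9 Pml (0.03) and Fcmr (0.03) were among the nearest of 8841 candidates, and 90 genes lay within 0.1. For Tlr4 the nearest were Acrbp (0.03), Arhgap5 (0.04) and Mpp1 (0.04), with 51 genes within 0.1. With 4 libraries many genes share a profile, and the measure is given as a description.

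Around the members, 89 further genes of the pathway were tested, and 0 were called over all genes against 0.109% of all genes. At an unadjusted p under 0.05, 1 was higher and 10 were lower in Sphk2 KO, against 3.06% and 7.47% of all tested genes, and their median log2 fold change was -0.01. Of the other receptors, Tlr5, which senses flagellin, had 20.9 and 37.6 CPM in the WT libraries and 34.9 and 38.4 CPM in Sphk2 KO. Tlr3 was near 1 to 2 CPM (0.756 to 1.96), and Tlr11 and Tlr12 had 1 to 14 counts a library and were not tested.

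In the list of co-receptors and accessory proteins, 2 of 6 tested genes had lower values in Sphk2 KO at an unadjusted p under 0.05 and 0 higher. These were Ly86 and Cd180, which encode the MD-1 and RP105 pair, a receptor complex related to TLR4 that is prominent on B cells. Ly86 had 35.3 and 28.3 CPM in the WT libraries and 22.9 and 14.9 CPM in Sphk2 KO, a log2 fold change of -0.76 (SE 0.240, edgeR adjusted p = 0.412). Cd180 had 56.4 and 45.9 CPM in the WT libraries and 41.5 and 23.1 CPM in Sphk2 KO, a log2 fold change of -0.67 (SE 0.265, edgeR adjusted p = 0.443). As with Tlr9, both were lowest in Sphk2 KO replicate 2. Ly96, which encodes MD-2, the partner of TLR4 itself, was low throughout, at 3.56 and 5.56 CPM in the WT libraries and 4.64 and 5.56 CPM in Sphk2 KO. Itgam, which encodes the CD11b integrin chain of MDSCs and other myeloid cells, was the most abundant of the list. It had 181 and 225 CPM in the WT libraries and 232 and 258 CPM in Sphk2 KO.

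Adaptors and the chaperones of the endosomal receptors showed 0 of 12 tested genes at an unadjusted p under 0.05. Unc93b1, which carries the nucleic acid receptors to endosomes, was the most abundant chaperone and nearly level: 273 and 282 CPM in WT against 293 and 263 CPM in the knockout, with a log2 fold change of 0.00 (SE 0.169, edgeR adjusted p = 0.995). Hsp90b1, the chaperone gp96 on which most Toll-like receptors depend for folding, had 114 and 73.9 CPM in the WT libraries and 78.8 and 57.5 CPM in Sphk2 KO, a log2 fold change of -0.47 (SE 0.235). Among adaptors, Pik3ap1, which links the receptors to phosphoinositide 3-kinase, gave -0.03 (SE 0.175), and Ticam2, the TRAM adaptor of TLR4, gave -0.56 (SE 0.314, edgeR adjusted p = 0.549).

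Of 10 endosomal proteases and nucleases, 2 had lower values at an unadjusted p under 0.05 and 0 higher. Pld4, an exonuclease that degrades the ligands of TLR9 and TLR7, had 138 and 88.5 CPM in the WT libraries and 80.5 and 44.8 CPM in Sphk2 KO, a log2 fold change of -0.86 (SE 0.296, edgeR adjusted p = 0.425), the largest difference in size of the 89 genes. Lgmn, the asparagine endopeptidase that cleaves TLR9, had 46.5 and 39.2 CPM against 33.4 and 31.9 CPM, a log2 fold change of -0.40 (SE 0.163, edgeR adjusted p = 0.455). Ctss, a lysosomal cathepsin, gave -0.38 (SE 0.167).

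Downstream, 0 of 18 kinases and ubiquitin ligases had an unadjusted p under 0.05. Tab2, an adaptor of the TAK1 kinase, gave 0.29 (SE 0.196). Ikbke, an interferon-inducing kinase, gave -0.81 (SE 0.396), with 51.3 CPM in WT replicate 1 and 17.5 to 23.0 CPM in the other libraries. Of 12 transcription factors, Irf8 and Irf5 had lower and Irf1 higher values at that threshold. Irf8, a factor of monocyte, dendritic and B cells, had 82.6 and 63.0 CPM in the WT libraries and 55.5 and 28.0 CPM in Sphk2 KO, a log2 fold change of -0.81 (SE 0.295, edgeR adjusted p = 0.425). Irf5, which MyD88 signaling activates, had 96.5 and 74.3 CPM against 70.7 and 49.6 CPM, a log2 fold change of -0.51. Irf1 had 218 and 302 CPM against 400.3 and 371 CPM, a log2 fold change of 0.57. Fos, their most abundant member at 1790 to 2608 CPM, gave -0.04 (SE 0.313).

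Negative regulators held 4 of the 10 genes with lower values at an unadjusted p under 0.05. These were 4 of 15 tested, against 7.47% of all tested genes, and 0 had higher values. Of the 4, 3 are feedback inhibitors of NF-kB. Other inhibitors of NF-kB in the list were not lower: Tnip1 gave 0.20, Otud7b 0.21 and Cyld 0.01. The list as a whole was not lower: of 15 tested, 9 had a log2 fold change above 0 and 6 below, with a median of 0.01. Tnfaip3, which encodes the A20 deubiquitinase, had 243 and 254 CPM in the WT libraries and 154 and 168 CPM in Sphk2 KO. Its replicates lay close together in both genotypes, and the log2 fold change was -0.63 (SE 0.159, edgeR unadjusted p = 0.00403), the lowest unadjusted p of the 89 genes, with an adjusted p of 0.373. Nfkbia, the IkB-alpha inhibitor, had 521 and 563 CPM against 387 and 399 CPM, a log2 fold change of -0.46 (SE 0.189, edgeR adjusted p = 0.453). Nfkbie, the IkB-epsilon inhibitor, had 56.5 and 68.2 CPM against 43.5 and 48.9 CPM, a log2 fold change of -0.43 (SE 0.160, edgeR adjusted p = 0.425). In all 3, unlike Tlr9, Sphk2 KO replicate 1 was the lowest library. Sigirr, a TIR domain decoy, stood at 4.77 to 5.58 CPM in the WT libraries and 2.54 to 3.64 CPM in Sphk2 KO. Dusp1, a phosphatase of stress kinases and the most abundant of the list, gave -0.07 (SE 0.334).

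Among genes that the receptors induce, 0 of 14 tested had an unadjusted p under 0.05. Il1b, the interleukin 1 beta gene, was the most abundant, at 3935 and 5959 CPM in the WT libraries and 4605 and 5758 CPM in Sphk2 KO, a log2 fold change of 0.07 (SE 0.404). Il1a, the list's gene with the lowest p, was near 1 to 2 CPM, a log2 fold change of -0.50 (SE 0.413). Il12b had 0 counts in every library.

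**Figure D5:**
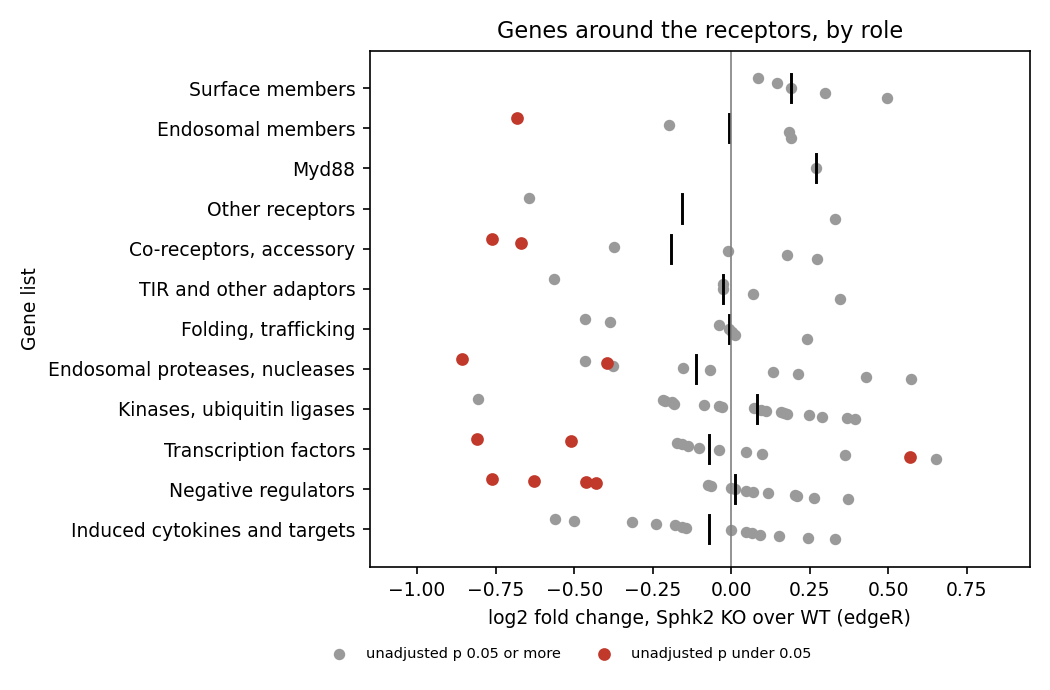
Log2 fold change of Sphk2 KO over WT (edgeR) for each tested gene, by its role around the receptors, with the median of each list as a black bar and genes at an unadjusted p under 0.05 in red. The 5 surface members lie between 0.09 and 0.50, and the red points are lower in Sphk2 KO in all cases but Irf1.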

How the data were processed

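The submitters' processing notes name Trim Galore, STAR, featureCounts, DESeq2 and the build GRCm39, without versions or roles. The annotation, the strand setting and the treatment of multi-mapping reads are not stated there or in the labels. The deposited table holds the authors' raw counts per Ensembl gene ID and library, 0 rows of which name no gene. Symbols came from GENCODE M21 (52083 of 55416 IDs, 94.0%). Its GRCm38 exon lengths and transcripts were joined by gene ID, and promoters are RefSeq GRCm38.p6. Of the listed symbols, Tasl had no match.

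Genotypes were compared on these counts in all 4 libraries by the quasi-likelihood test of edgeR 4.0.16 (R 4.3.3) after filterByExpr and TMM, with no covariate, with Benjamini-Hochberg adjustment over all genes and a threshold of 0.05. The procedure was run on simulated counts with the same dispersion (spread between replicates) for every gene. The simulated libraries had no replicate effect, so the run does not show how the test behaves on these data. Each SE was derived from the log2 fold change and its F statistic, and log2 CPM used a prior count of 2. Alternatives were DESeq2 1.42.0, limma-voom 3.58.1, RLE, library size alone, no filter, a stricter filter (1 CPM in 2 libraries and 100 counts), robust empirical Bayes, a replicate block and each library left out.

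The members and lists were chosen with earlier results of these data known. Named pathway genes are the most abundant per kilobase and the lowest p of each list, and of each marker list the most abundant. Tlr11, Tlr12, Ly96, Cd180, Lgmn, Irf5, Irf1, Sigirr, Nfkbia, Nfkbie, Tnip1, Otud7b, Cyld, Il12b, Siglech, Camp, Ltf and Mmp9 were named after their values were seen. Likeness candidates had a mean of at least 5 CPM. Some genes that this rule would name are not reported here.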

Additional observations from a re-analysis of the deposited data

How the results depend on the processing

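Of 120 member values (10 genes, 12 alternatives), 107 kept their sign and side of the threshold, 9 changed sign and 4 newly passed it. With library size alone, which moved the median of all tested genes to -0.17, Tlr2 was -0.0018 and Cd14 -0.075. Leaving out a library gave ranges of -0.24 to 0.66 for Tlr2, -0.10 to 0.46 for Tlr6, -0.085 to 0.28 for Cd14, -0.44 to 0.11 for Tlr7, -0.028 to 0.36 for Tlr8, 0.15 to 0.77 for Tlr4 and -1.11 to -0.34 for Tlr9. The genes called over all genes were 18, against 76 with DESeq2, 615 without a count filter and 54 to 1061 with a library left out. Members called ranged from 0 to 1 with a library left out, and pathway genes called from 0 to 12; without a count filter 5 pathway genes were called. The endosomal share of the receptors differed by -6.97 to 2.14 percentage points with a library left out, so its sign is not settled. A fit that leaves out a library has 1 sample in a group, which is assumed to vary like the other group's samples. The cause of these changes was not tested.

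The labels give both genotypes replicates 1 and 2 without saying that a number marks a shared batch. The difference of replicate 2 from replicate 1 correlated at 0.44 between the genotypes over 16566 genes, which are not independent. A fit with the replicate block called 2637 genes, 15.9% of the 16566 tested. Among them were 2 of the 10 members and 23 pathway genes. The 2 members were Tlr4 at 0.48 (edgeR adjusted p = 0.00251) and Tlr9 at -0.72 (edgeR adjusted p = 4.01e-05). With 2 libraries a group, the SE of a member's log2 fold change was 0.162 (Tlr1) to 0.283 (Tlr2), which limits what could be detected.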
